A study of Drosophila melanogaster with 8 samples.

Results

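The gene pair described here is Alg7, which encodes the enzyme of the first step of N-glycan assembly, and LManII, which encodes a lysosomal alpha-mannosidase. All clones that the array's annotation gives to either gene were taken. There was 1 clone of each gene, printed as 2 spots, so the pair makes up 2 of the 13824 clones of a Drosophila melanogaster cDNA array. Both genes were chosen from these same ratios for their opposite timing over the 2 days of harvest, so their values are given as a description, with no test.

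RNA came from pooled heads of unmated males of the Oregon R wild-type strain, 3 to 4 days old when the drugs started, kept at 30 flies per vial. For day 14, flies ate pentylenetetrazole (PTZ, a convulsant acting on GABA receptors) at 8 mg/ml for 7 days, then vigabatrin (VGB, an inhibitor of GABA transaminase) at 24 mg/ml for 3 days, and then normal food for 4 days. For day 10, flies had the same 7 days of PTZ and 3 days of VGB and were harvested at the end of VGB. Control flies, which ate normal food throughout, were harvested on the same day. Each of the 8 arrays, 4 per day, set 1 treated pool against 1 parallel control pool, so no control was shared. The design has no arm with 1 drug alone, so PTZ, VGB and their order cannot be told apart. Treated RNA carried Cy5 in replicates 1 and 2 of each day and Cy3 in replicates 3 and 4.

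Measurements are given as log2 ratios, treated heads over control heads, and a value below 0 means less signal in treated heads. Which dye is on top of the deposited ratio is not given in the sources used here. Cy5 was read as the numerator and the values of replicates 3 and 4 were multiplied by -1. Every direction below rests on that unsettled reading. Arrays of the same dye orientation had turned ratios that correlated above 0 in 4 of 4 pairs of arrays of the same day (Spearman 0.22 to 0.67). Arrays of opposite orientation did so in 6 of 8 (-0.14 to 0.26). The pairs below 0 were day-10 replicate 3 with day-10 replicates 1 and 2 (-0.14 each). Replicates 1 to 3 are the day-10 arrays that measured Alg7 and LManII, so turned ratios did not correlate above 0 across dyes there. These are descriptions over clones of shared slides. Per array, 8419 to 20241 spots had a value, and the fewest lay in day-10 replicate 4 (8419) and day-14 replicate 1 (9266). Array medians ran from -0.11 to 0.24 at day 14 and from -0.48 to 0.02 at day 10, so values are also given relative to the median of their array ("centred") and relative to the median of neighbouring clones on the slide ("locally centred"). As a check of tissue, 7 of 8 photoreceptor genes on the array were measured on at least 6 arrays. So were 8 of 11 fat body, 4 of 6 glial, 2 of 3 muscle and 1 of 1 neuronal genes. The counts were 1 of 2 for midgut and 1 of 5 for testis and accessory gland. Of all 13824 clones, 4563 met a stricter rule of at least 3 arrays of each day. Counts this small separate tissues only roughly.

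N-glycans are sugar trees that the cell attaches to asparagine residues of proteins entering the secretory pathway. The tree is first built on the lipid dolichol phosphate in the endoplasmic reticulum (ER) membrane, and Alg7 (DPAGT1 in humans) adds the first sugar, N-acetylglucosamine phosphate. It is the enzyme blocked by tunicamycin. The finished tree is moved onto the protein by oligosaccharyltransferase, trimmed and checked in the ER, and remodelled in the Golgi. At the other end of a glycoprotein's life, lysosomal alpha-mannosidases remove mannose as the glycan is broken down. In humans, loss of lysosomal alpha-mannosidase causes the storage disease alpha-mannosidosis.

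Alg7 had about equal signal in treated and control heads at day 14, after the drugs had been withdrawn, and less signal in treated heads at day 10. On the 4 day-14 arrays (replicates 1 to 4) its log2 ratios were 0.30, -0.40, -0.10 and 0.24. On the 3 day-10 arrays with a value (replicates 1 to 3) they were -1.49, -1.09 and -1.20. Both dye orientations gave the low day-10 values, and the days did not overlap. The mean was 0.01 ± 0.32 at day 14 (SD, n = 4) and -1.26 ± 0.21 at day 10 (SD, n = 3), which correspond to ratios of 1.01 and 0.417. Day-10 replicate 4 had no value for Alg7, so the lower day-10 signal was seen in 1 array with treated RNA in Cy3 and 2 with treated RNA in Cy5.

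The 2 spots of the Alg7 clone disagreed in size at day 10. At day 14 the first spot gave 0.37, -0.25, -0.21 and 0.25 and the second gave 0.22, -0.55, 0.02 and 0.24 (replicates 1 to 4). At day 10 the first spot gave -1.22, -0.57 and -0.80 and the second gave -1.76, -1.61 and -1.61 (replicates 1 to 3). The second spot was the lower one on each of these 3 arrays. The gap between the spots of day-10 replicates 2 and 3, 1.04 and 0.81, was larger than that of 96.0% and 95.7% of clones on those arrays. On either spot alone, the days still did not overlap.

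Against the other clones of its array, Alg7 lay away from both ends at day 14 and near the bottom at day 10. At day 14, 73.8%, 20.7%, 27.1% and 50.8% of clones lay lower than Alg7 (replicates 1 to 4). At day 10, 2.6%, 3.3% and 1.1% did (replicates 1 to 3). Centred, Alg7 had 0.29, -0.29, -0.18 and 0.01 at day 14, with a mean of -0.04 ± 0.25 (SD, n = 4). Centred day-10 values were -1.01, -0.74 and -1.22, with a mean of -0.99 ± 0.24 (SD, n = 3). The days remained apart on this scale too.

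LManII ran in the other order. It lay below 0 on every array that measured it, and was lower relative to its array at day 14 than at day 10. On the 3 day-14 arrays with a value (replicates 2 to 4) its log2 ratios were -1.10, -0.65 and -0.36. On the 3 day-10 arrays with a value (replicates 1 to 3) they were -0.55, -0.46 and -0.05. As deposited, these 2 sets overlapped, with means of -0.70 ± 0.38 at day 14 and -0.35 ± 0.27 at day 10 (SD, n = 3 each), or ratios of 0.615 and 0.783.

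**Figure D1:**
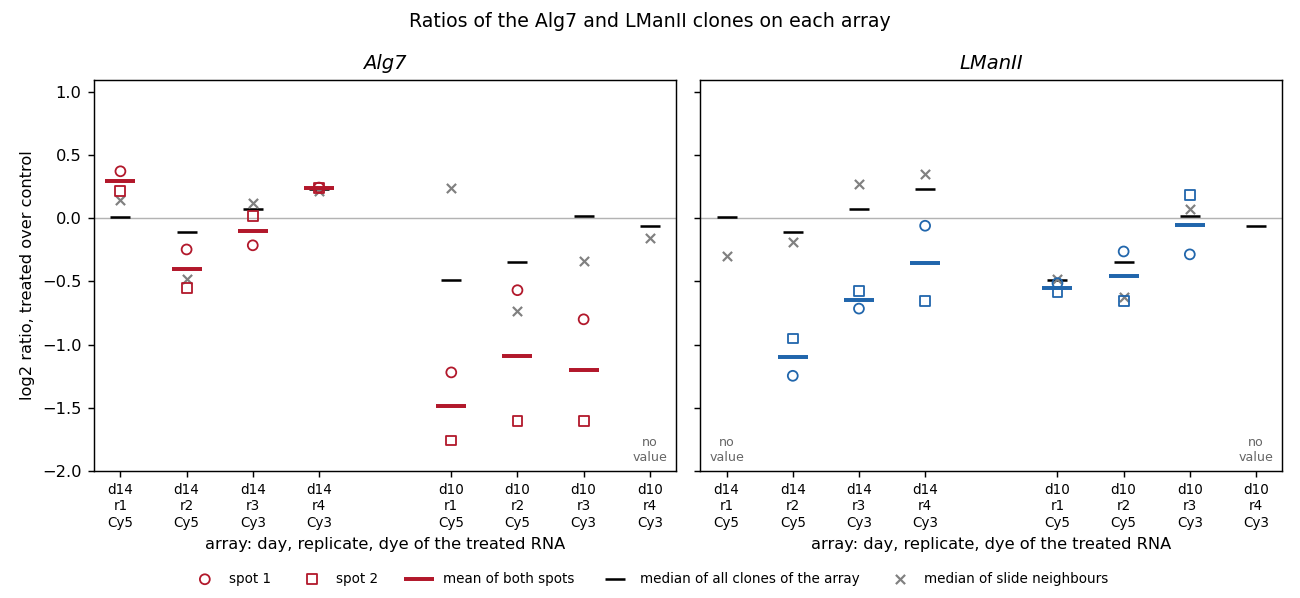
The log2 ratio of treated over control (vertical axis) is plotted for each array (horizontal axis, with day, replicate and dye of the treated RNA) for Alg7 in red (left) and LManII in blue (right). Circles and squares are the 2 spots, coloured bars their mean, black bars the median of all clones of the array and crosses the median of the slide neighbours. Alg7 sits between -0.40 and 0.30 at day 14 and between -1.49 and -1.09 at day 10, while LManII sits between -1.10 and -0.36 at day 14 and between -0.55 and -0.05 at day 10.

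The days of LManII lay apart relative to the rest of each array, though not as deposited. Centred, LManII had -0.995, -0.72 and -0.59 at day 14 (replicates 2 to 4) and -0.07, -0.11 and -0.07 at day 10 (replicates 1 to 3). The centred means were -0.77 ± 0.21 at day 14 and -0.08 ± 0.03 at day 10 (SD, n = 3 each), and here the days did not overlap. At day 14, 0.4%, 1.6% and 5.2% of clones lay lower than LManII, and at day 10, 45.0%, 37.8% and 43.3% did. LManII thus lay near the middle of the day-10 arrays, and its deposited day-10 ratios of -0.55 and -0.46 stood beside array medians of -0.48 and -0.35.

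The 2 LManII spots were both below 0 on each day-14 array, at -1.25 and -0.95 in replicate 2, -0.72 and -0.58 in replicate 3, and -0.06 and -0.65 in replicate 4. The gap in replicate 4 was larger than that of 95.2% of clones there, so its low value came mainly from the second spot. At day 10 the spots gave -0.51 and -0.59 in replicate 1, -0.26 and -0.66 in replicate 2, and -0.29 and 0.19 in replicate 3. No value for LManII was present on day-14 replicate 1 or day-10 replicate 4, the arrays with the fewest spots.

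Non-overlap of the days was not rare among all clones tested. Of the 4563 clones measured on at least 3 arrays of each day, 536 (11.7%) had all day-10 values below all day-14 values as deposited, as Alg7 did, and 216 (4.73%) did after centring. The LManII order, with all day-14 values below all day-10 values, was found in 25 clones (0.548%) as deposited, which LManII itself was not among, and in 172 (3.77%) after centring. With the ratios read as already turned these counts were 145 (3.18%) and 128 (2.81%), and neither gene was among them: Alg7 then ran from -0.40 to 0.30 at day 14 and from -1.49 to 1.2025 at day 10, and LManII from -1.10 to 0.65 and from -0.55 to 0.05. Since timing chose both genes, nothing is read from these shares.

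The same values can be set against each other within arrays, where their sign by day follows from the choice of these genes for opposite timing and adds no support. The Alg7 log2 ratio minus that of LManII, a difference of ratios in which the array median cancels, was 0.70, 0.55 and 0.60 on day-14 replicates 2 to 4. It was -0.94, -0.63 and -1.15 on day-10 replicates 1 to 3. Thus Alg7 lay above LManII on each day-14 array that measured both and below it on each such day-10 array. This compares changes against control, not levels of the transcripts. If the authors had already turned the swapped arrays, the signs of replicates 3 and 4 would be the opposite.

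**Figure D2:**
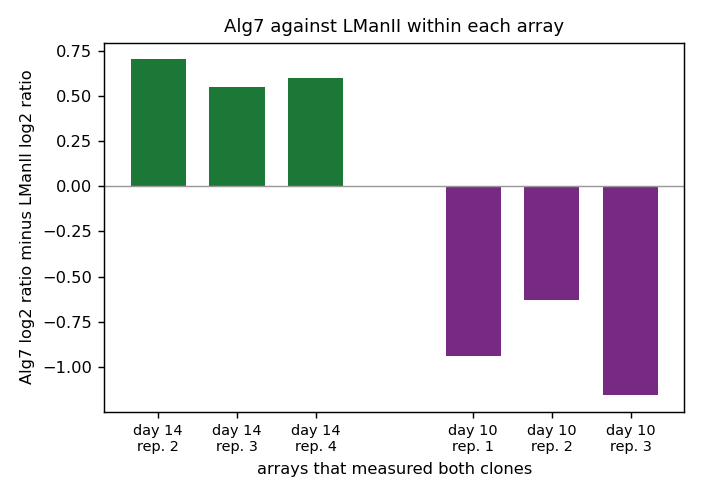
Bars give the Alg7 log2 ratio minus the LManII log2 ratio (vertical axis) on each of the 6 arrays that measured both clones (horizontal axis). The 3 day-14 arrays lie between 0.55 and 0.70 and the 3 day-10 arrays between -1.15 and -0.63, a pattern that follows from how the genes were chosen.

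A linear model (limma) of all 4563 clones with a term per day and a dye term gave values that share the spread of both days. Alg7 had 0.01 ± 0.14 at day 14 and -1.24 ± 0.17 at day 10 (log2, SE), with a difference of day 14 minus day 10 of 1.25 ± 0.22. It ranked 14th lowest of all clones at day 10 and 7th highest by the difference. LManII had -0.79 ± 0.14 at day 14 and -0.26 ± 0.14 at day 10, with a difference of -0.52 ± 0.20. It ranked 6th lowest at day 14 and 44th lowest by the difference. These ranks rest on the reading of the dyes. The dye term was -0.05 for Alg7 and -0.26 for LManII, against a median of -0.14 over all clones.

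Ratios on these slides followed position, so the surroundings of each clone were examined. Alg7 was printed in block 44 and LManII in block 37. Neighbours of Alg7 had medians of 0.14, -0.48, 0.12 and 0.22 at day 14 and of 0.24, -0.73 and -0.34 at day 10. Locally centred, Alg7 had 0.15, 0.08, -0.22 and 0.02 at day 14 (mean 0.01 ± 0.16, SD, n = 4) and -1.73, -0.36 and -0.86 at day 10 (mean -0.98 ± 0.70, SD, n = 3). The 3 day-10 values stayed lowest but spread widely. Neighbours lay below the median of their array in replicate 2 (-0.73 against -0.35) and replicate 3 (-0.34 against 0.02). In replicate 1 they lay above it (0.24 against -0.48).

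Neighbours of LManII had medians of -0.19, 0.27 and 0.36 at day 14 and -0.48, -0.62 and 0.08 at day 10. Locally centred, LManII had -0.91, -0.92 and -0.71 at day 14 and -0.07, 0.16 and -0.12 at day 10. The means were -0.85 ± 0.12 and -0.01 ± 0.15 (SD, n = 3 each). In the fit of this scale, LManII ranked 4th lowest of 4255 clones at day 14 and Alg7 ranked 11th lowest at day 10.

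The reading of the dyes decides the sizes. If the authors had already turned the swapped arrays, Alg7 had fitted values of -0.06 at day 14 and -0.29 at day 10, and LManII -0.21 and -0.14. The fitted differences of day 14 minus day 10 were then 0.23 for Alg7 and -0.07 for LManII. Alg7 ranked 1582nd lowest of 4563 clones at day 10 and 1216th highest by the difference, and LManII ranked 1503rd lowest at day 14 and 1371st lowest by the difference, so neither stood near an end. Without day-14 replicate 1 and day-10 replicate 4 together, the differences were 1.08 and -0.52.

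**Figure D3:**
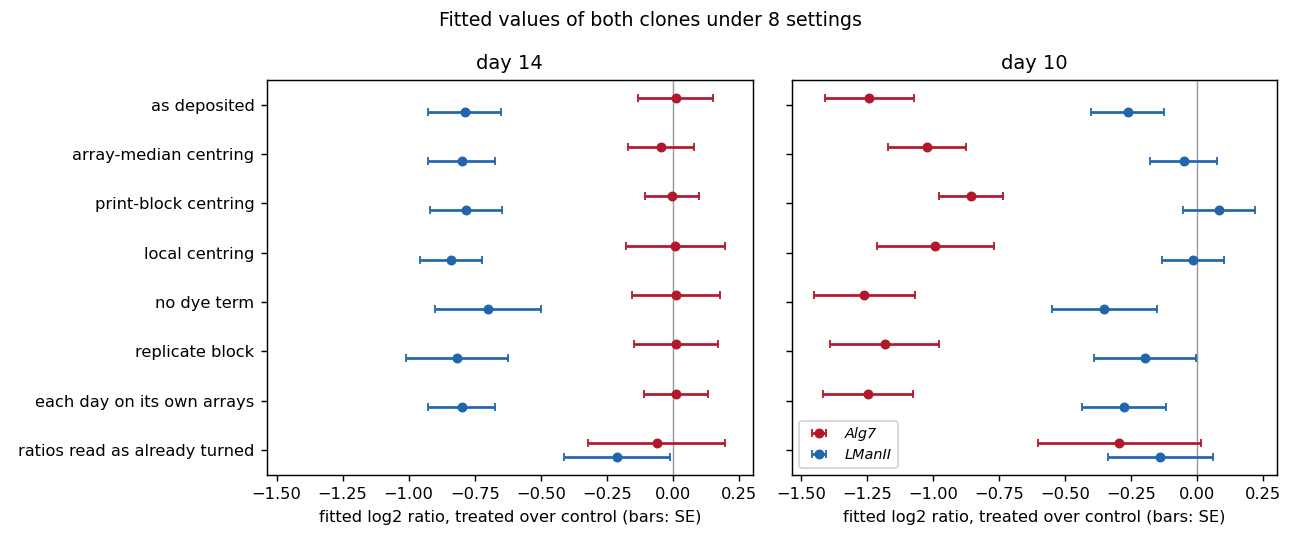
Fitted log2 ratios of treated over control (horizontal axis, bars are SE) are given for Alg7 in red and LManII in blue at day 14 (left) and day 10 (right) under 8 settings (vertical axis). LManII lies lowest at day 14 and Alg7 lowest at day 10 under each setting, with the smallest values when the ratios are read as already turned, at -0.21 and -0.29.

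Neighbouring and related genes bear on what the clones can measure. In the RefSeq annotation (Release 6) Alg7 overlaps Mgat3, a Golgi N-acetylglucosaminyltransferase gene with no clone on the array, and Rsph1, a radial spoke gene with 1 clone. Rsph1 had -0.04 on the 1 day-14 array that measured it and -0.56, -0.09 and -0.38 at day 10, so its day-10 ratios were less low than those of Alg7, and it was not tested. LManII lies next to its paralogue LManI, which has no clone of its own on the array. Whether the LManII clone also binds LManI transcripts, or the Alg7 clone those of its overlapping genes, was not tested, since clone sequences are not used here.

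Of the other lysosomal alpha-mannosidase genes, LManIII, LManV and LManVI had values and LManI and LManIV are not named in the annotation. LManVI, the 1 tested, did not pass, with -0.29 ± 0.16 at day 14 (limma adjusted p = 0.369) and -0.25 ± 0.13 at day 10 (limma adjusted p = 0.202). Its ratios were -0.30, -0.18 and -0.19 on day-14 replicates 1, 3 and 4 and -0.86, -0.28, 0.07 and 0.06 at day 10, and its days overlapped. LManV had -0.17 on 1 day-14 array and 0.36 and 0.42 on 2 day-10 arrays. LManIII had no day-14 value and -0.79, -0.32 and 0.15 at day 10.

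Genes of the surrounding pathways were followed as 8 lists, from the dolichol-linked precursor to the lysosome. Of 119 listed genes, 76 were on the array and 40 were tested, with 1 clone standing for each gene. At day 14, 0 of the 40 passed (limma adjusted p, threshold 0.05), against 0 of all 4563 clones (0%), of which 802 had an unadjusted p under 0.05. In a fit of the day-14 arrays alone, 5 of the 40 passed, 1 higher and 4 lower, where 7.56% of all clones were higher and 3.86% lower. At day 10, 8 of the 40 fell and 0 rose, which is 20%, where 13.6% of all clones tested were lower and 0.394% higher. The median of the 40 was -0.08 at day 14 and -0.31 at day 10, against 0.03 and -0.21 over all clones. None of these 8 passed after centring, where 2.19% of all clones were lower and the median of the 40 was -0.11 at day 14 and -0.09 at day 10. After local centring 0 pathway genes passed, where 1.32% of all clones were lower and 0.094% higher, and with the day-10 arrays fitted alone 2 did (BI-1 and UGP), where 5.13% were lower and 0.0877% higher. The day-10 count of 8 also dropped to 1 without day-10 replicate 1, to 3 without day-10 replicate 4, and to 2 without either day-14 replicate 3 or day-14 replicate 4.

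Of 5 other genes of dolichol-linked assembly that were tested, 0 passed on either day, and their median was 0.08 at day 14 and -0.13 at day 10. Alg11, a mannosyltransferase of the same pathway, had 0.02 at day 14 and 0.03 at day 10. Dolk, the dolichol kinase gene, had -0.12 and -0.37 on those days (adjusted p at day 10 = 0.129). Dhdds, whose product makes the dolichol chain, was the highest of the list at day 14, with 0.55 ± 0.12 (limma adjusted p = 0.166), and had -0.13 at day 10. Its ratios were 0.41, 0.28, 0.62 and 0.90 on the day-14 arrays, all above 0, and -0.53, -0.63, 0.51 and 0.13 on the day-10 arrays, which split by dye orientation.

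Among the genes that supply sugar nucleotides, 2 of 5 fell at day 10 as deposited, where 13.6% of all clones were lower, and 0 of 5 were lower after centring. UGP, which encodes the enzyme that makes UDP-glucose, had a log2 ratio of -0.57 at day 14 without passing and of -0.68 ± 0.18 at day 10 (limma adjusted p = 0.0360). Pgi, the phosphoglucose isomerase gene, had -0.17 at day 14 and -0.58 ± 0.13 at day 10 (limma adjusted p = 0.0137). The hexosamine pathway genes Gfat1 and Gfat2, which start the supply of the sugar that Alg7 uses, had 0.14 and -0.23 at day 14 and -0.41 and -0.12 at day 10, and neither passed. Both genes of oligosaccharyltransferase that were tested, Stt3B and Dad1, had 0.12 and 0.09 at day 14 and -0.14 and -0.35 at day 10, also without passing.

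In the ER, 1 of 8 trimming and folding-check genes fell at day 10, about the 13.6% of all clones, and 0 of 8 were lower after centring. Edem1, which directs misfolded glycoproteins to degradation, had -0.12 at day 14 and -0.40 ± 0.11 at day 10 (limma adjusted p = 0.0362), but a further Edem1 clone had 0.28 and 0.49 (adjusted p at day 10 = 0.0778), so the clones of this gene disagree in sign. GCS1, the glucosidase gene that removes the outermost glucose, was the lowest of the list at day 14, with -0.42 (adjusted p = 0.173), and had -0.36 at day 10. The class I mannosidase genes alpha-Man-Ia and alpha-Man-Ib had 0.09 and 0.02 at day 14 and -0.37 and 0.39 at day 10. Centred, alpha-Man-Ib had 0.61 at day 10 (limma adjusted p = 0.0474). It was the 1 gene of the 40 that passed on that scale, where 0.833% of all clones were higher. Its centred day-10 values were 1.25 and 0.92 with treated RNA in Cy5, and -0.12 and 0.38 with treated RNA in Cy3. Locally centred, it had 0.17 at day 10 (limma adjusted p = 0.56).

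Of the 4 Golgi genes tested, 0 passed on either day, with a median of 0.08 at day 14 and -0.16 at day 10. The branching enzyme genes Mgat1 and Mgat2 lay near 0, with 0.07 and 0.00 at day 14 and 0.05 and -0.02 at day 10. Csas, the gene of CMP-sialic acid synthase, had 0.14 at day 14 and -0.57 at day 10 (adjusted p = 0.0543).

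Other lysosomal genes had a median of -0.15 at day 14 and -0.37 at day 10, and 3 of the 9 tested fell at day 10, where 13.6% of all clones were lower, with 0 of 9 lower after centring. CtsB, the gene of the protease cathepsin B, had -0.30 at day 14 and -0.58 ± 0.18 at day 10 (limma adjusted p = 0.0487). Ppt1, a thioesterase gene whose human counterpart is mutated in a childhood storage disease of neurons, had -0.15 and -0.47 ± 0.13 (adjusted p at day 10 = 0.0342). Npc2a, a sterol transport gene, had -0.22 and -0.48 ± 0.14 (adjusted p at day 10 = 0.0441). Npc1a, the partner of Npc2a in lysosomal sterol export, was the highest of the list at day 14 with 0.21 and had -0.37 at day 10, without passing. The lysosomal membrane gene Lamp1 was the lowest at day 14, with -0.39, and had -0.52 at day 10 (adjusted p = 0.085), while the lipase gene mag was the highest at day 10, with 0.36, and had 0.13 at day 14. At day 14 the lowest of these 9 lay above the -0.79 of LManII, which was chosen from these same ratios.

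**Figure D4:**
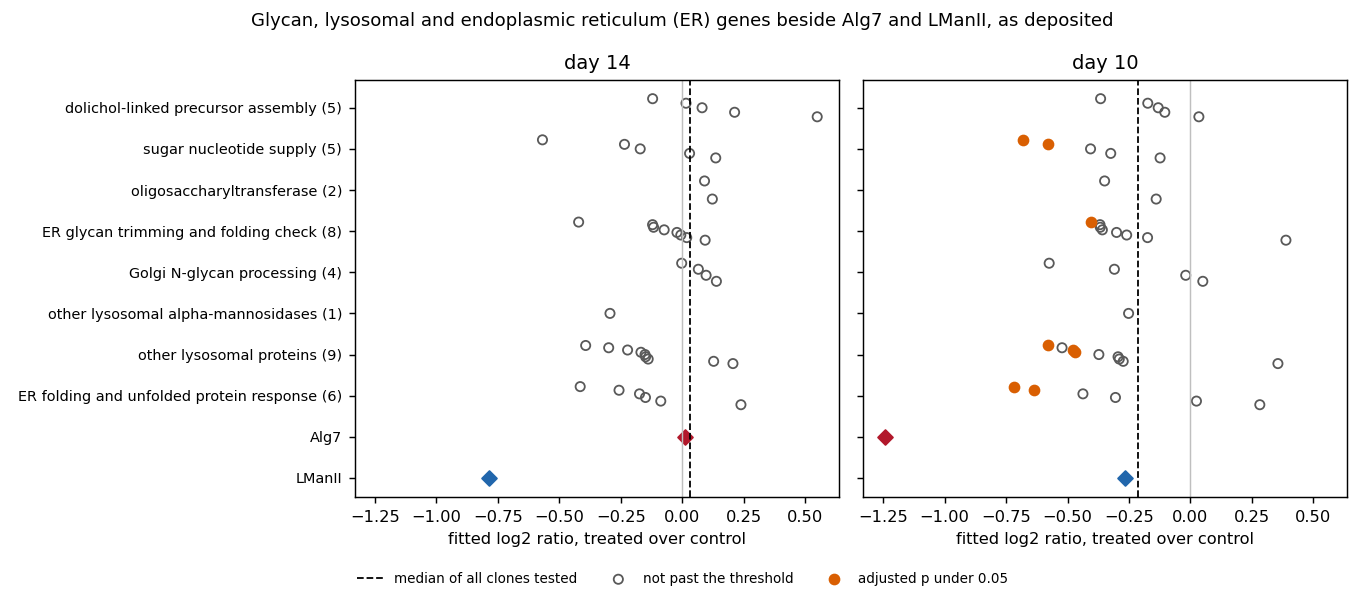
Each circle is the fitted log2 ratio of treated over control (horizontal axis) of 1 tested gene of the 8 lists (vertical axis, number tested in brackets) at day 14 (left) and day 10 (right). Filled circles passed the threshold, the dashed line is the median of all clones, and diamonds are Alg7 and LManII. At day 14, 0 genes passed and LManII lies below all listed genes. At day 10, 8 genes passed as lower and Alg7 lies below all listed genes. Alg7 and LManII were chosen from these same ratios, so their places here add no support.

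The unfolded protein response is known to rise in many cells when N-glycosylation fails. Of 19 listed genes of this response and of ER folding, 6 were tested. Hsc70-3, Xbp1, Ire1 and Manf have no clone in the annotation. Pdi, Gp93, PEK, Herp and Hrd3 had too few values. Whether the response changed therefore cannot be read from these genes. Of the 6 tested, 2 fell at day 10, where 13.6% of all clones were lower, and 0 of 6 were lower after centring. Their median was -0.16 at day 14 and -0.37 at day 10. Sec61beta, a subunit of the ER protein channel, had -0.15 at day 14 and -0.72 ± 0.20 at day 10 (limma adjusted p = 0.0468). BI-1, an ER membrane gene that restrains cell death, had -0.26 and -0.64 ± 0.13 (adjusted p at day 10 = 0.0122). Its day-10 ratios were -0.94, -1.06, -0.38 and -0.16, all below 0, against -0.38, -0.31 and 0.21 on the 3 day-14 arrays with a value. Among stress transcription factor genes, Atf6 had 0.24 at day 14 and -0.30 at day 10. The other, crc (the fly gene of the ATF4 factor), had -0.42 and -0.44 on those days. The oxidase gene Ero1L had -0.17 and 0.28, and 0 of these 3 passed.

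Markers of the cell types of the head were followed beside these genes. Of 7 fat body genes tested 4 fell at day 10 (Lsp2, Obp99b, apolpp and Adh), where 13.6% of all clones were lower, and the median of the 7 was -0.21 at day 14 and -0.90 at day 10, with day-10 values between -1.15 and -0.44. A further apolpp clone was also lower at day 10 (-1.29) but had -0.51 at day 14, where the clone counted had 0.41. A further Desat1 clone passed at day 10 (-0.89, limma adjusted p = 0.0115), while the Desat1 clone counted did not (-0.51, limma adjusted p = 0.0527). After centring 3 of the 7 were lower at day 10, where 2.19% of all clones were. The centred median was -0.27 at day 14 and -0.68 at day 10. Of 4 glial genes tested 4 fell at day 10, again against 13.6% of all clones, and their median was -0.22 at day 14 and -0.69 at day 10. After centring 1 of them was lower, against 2.19%. The 7 photoreceptor genes had medians of -0.07 at day 14 and -0.33 at day 10, with 0 passing. The 1 neuronal gene tested, nSyb, had -0.11 at day 14 and 0.26 at day 10 without passing, and 0 of 2 muscle, 0 of 1 midgut and 0 of 1 testis and accessory gland genes passed. In pooled heads, fewer cells of a type and less RNA per cell cannot be told apart, and the part of these cell types in the Alg7 and LManII ratios was not tested.

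The clones most like Alg7 across arrays were sought among 1330 clones with 1 gene that were measured on the same 7 arrays, by Pearson correlation of centred ratios. CG12016 came first with 0.94, sstn second with 0.92 and then Obp19d, an odorant-binding protein gene, with 0.90. Their mean centred ratios were -0.17, 0.19 and -0.01 at day 14 and -0.55, -0.14 and -0.41 at day 10, which were less low at day 10 than that of Alg7. Lower values at day 10 follow from choosing the clones for their likeness to Alg7 over these arrays. These arrays share dye orientation and slide effects, and the clones lay in other print blocks (43, 10 and 35). LManII was measured on 6 arrays, fewer than the 7 set for this comparison, and no clones are named for it.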

How the data were processed

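Per the labels, cRNA from treated and control heads was labelled with Cy5 or Cy3 and hybridised together. Per the submitters' processing notes and design text, the authors used a GenePix 4000A scanner, GenePix Pro 6.0 and a ratio normalization in Acuity 4.0, and filtered spots on intensity (100 or more), signal over background (2 or more), saturation (below 3%), R2 (0.6 or more) and signal-to-noise ratio (3 or more). The deposited values are log2 ratios, a scale read from the values. Scanner intensities are not used here, so the signal behind a ratio is unknown beyond these filters.

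Both spots of a clone were averaged, and ratios were turned to treated over control in replicates 3 and 4. limma 3.58.1 (R 4.3.3) was fitted with a coefficient per day and a dye term to the 4563 clones with values on at least 3 of 4 arrays of each day. P-values were adjusted by Benjamini-Hochberg over all of them (threshold 0.05). At an unadjusted p under 0.05, 1581 clones passed at day 10, 802 at day 14 and 1225 for their difference. Local centring subtracted the median of at least 5 neighbours within 2 rows and 3 clones of the same print block, a layout inferred from the order of spots. The fit was tested on simulated data with independent noise, which does not cover the dependence of real ratios on slide position. Genes were named from the array annotation and RefSeq (Release 6). The genes named from the lists are those past the threshold, the highest and the lowest of each list on each day, all other LMan genes with a value and the 3 clones most like a member. The members and lists were chosen with earlier results of these data known. The labels give 4 replicates per day as separate pools, and p-values measure the spread between these pools. Same-numbered pools of the 2 days had deviations that correlated by 0.10, 0.26, 0.16 and 0.25, which includes their common dye orientation. Without it they correlated by 0.03 to 0.05, but those values mirror each other by design and cannot settle whether the numbers are pairs. The main fit did not treat the numbers as pairs, and a fit with the replicate number as a block is given below.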

Additional observations from a re-analysis of the deposited data

Results flagged for a closer look

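LManV, another lysosomal alpha-mannosidase gene, had ratios of opposite sign on the days, with 1 day-14 array below 0 and both day-10 arrays above 0. Day 14 minus day 10 was -0.5578 on the log2 scale. With 3 arrays in all the difference was not tested. Locally centred, LManV had -0.02 at day 14 and -0.27 and 0.26 at day 10, so the opposite signs were not present on that scale. The 2 spots of day-10 replicate 1 gave -0.279 and 0.999.

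Dad1, a subunit gene of oligosaccharyltransferase, had 1 array far from the others at day 14, replicate 2 with 0.645, where the others lay between -0.168 and -0.0355. For the ER degradation gene Edem1 it was day-14 replicate 4 with 0.1445, where the others lay between -0.2365 and -0.1815. These were 2 of 37 groups of 4 arrays examined, and chance alone sets apart about 1 in 20.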

How the results depend on the processing

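Alg7 at day 10 (-1.24) was -1.02 after array-median centring, -0.86 after print-block centring, -0.99 after local centring and -0.29 when ratios were read as already turned. Its difference (1.25) was 0.85 after print-block centring and 0.23 as already turned. LManII at day 10 (-0.26) changed sign to 0.0822 after print-block centring, and at day 14 (-0.79) was -0.21 as already turned. Without single replicates, Alg7 ran from -0.13 to 0.16 at day 14, from -1.35 to -1.15 at day 10 and from 1.08 to 1.43 for the difference. LManII ran from -0.87 to -0.73, from -0.30 to -0.20 and from -0.60 to -0.45.

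Of all clones, 638 passed at day 10 (97.2% lower). The count was 138 after array-median (72.5% lower), 117 after print-block (91.5%) and 60 after local centring (93.3%), 268 with no dye term (98.9%), 11 as already turned (81.8%), 238 with each day on its own arrays (98.3%), and 292 without day-10 replicate 4 and day-14 replicate 1, a setting chosen after seeing the data. Of the pathway genes, 8 passed at day 10, against 1, 0, 0, 2, 0, 2 and 2 under those settings. With at least 2 arrays a day 2 passed. The 1 after array-median centring was alpha-Man-Ib, which was higher and not among the 8. Without single replicates the counts of all clones ran from 226 to 684. Those of pathway genes ran from 1 to 7, in some cases with genes not among the 8. At day 14, 521 clones (345 higher, 176 lower) and 5 pathway genes (1 higher, 4 lower) passed with each day on its own arrays, against 0 and 0 in the fit of all arrays. Without single replicates the counts ran from 0 to 3 and from 0 to 0, and for the difference from 0 to 17 (17 without day-10 replicate 3) and from 0 to 0. The cause was not tested.

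With the replicate number as a block, 414 clones (98.1% lower) and 5 pathway genes passed at day 10, 4 of the 5 among the 8. Alg7 had 0.01 at day 14, -1.18 at day 10 and a difference of 1.19, and LManII had -0.82, -0.20 and -0.62. With dye orientation left in, not every array correlated best with its own number. With it taken out each did, at 0.03 to 0.05. Those values mirror each other, since each day has 2 arrays per orientation, so they cannot settle whether the numbers are pairs.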
